A study of Mus musculus with 2 samples.

Results

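The genes described here encode Wnt ligands, their receptors and the proteins that raise or lower Wnt signalling. They were chosen by symbol: Wnt, Fzd, Rspo, Sfrp or Dkk followed by a number, together with Lgr4, Lgr5, Lgr6, Lrp5, Lrp6, Axin2, Znrf3, Rnf43, Wif1, Lef1 and Tcf7. The rule took 52 of the 19070 genes of the panel: 19 Wnt ligands, 12 receptors, 9 genes of the R-spondin axis, 9 secreted modulators and 3 nuclear factors or targets. All 52 had an entry with the same identifier in GENCODE M21. The data were single-cell counts from mouse endometrium on day 3 of pregnancy, named 9 AM in the sample titles, with 1 library from Erbb3 f/f females (control) and 1 library from Erbb3 d/d females. The Chromium Flex assay reads transcripts of fixed cells through gene-specific probes and counts molecules by their identifiers (UMIs). Erbb3 encodes a receptor of the ErbB family, and the series describes the d/d animals as lacking it in the stroma. The Cre line behind the deletion, the age of the females and the number of animals pooled into a library are not given in the sources used here. With 1 library per genotype there is no spread between animals, so no test was run and each difference below is a difference between these 2 libraries.

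Wnt proteins are lipid-modified secreted factors that bind Frizzled receptors (Fzd) together with the co-receptors Lrp5 or Lrp6. In the canonical branch this keeps β-catenin from being degraded, and β-catenin then acts with Lef1 or Tcf7 on target genes such as Axin2, which encodes an inhibitor of the pathway. Znrf3 and Rnf43 are ubiquitin ligases that remove Frizzled from the membrane, and R-spondins (Rspo) acting through Lgr4, Lgr5 and Lgr6 block them. Sfrp, Dkk and Wif1 proteins are secreted modulators, and many of them are inhibitors. In the mouse uterus, Wnt7a is known as a luminal epithelial ligand, Wnt4 as a ligand of the stroma needed for decidualisation, Wnt5a as a stromal ligand of the non-canonical branch, and Wnt11 as a ligand of the epithelium.

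The start-site regions of the 4 members that the comparison of the libraries turns on are shown here, to show where the core motif bound by Lef1 and Tcf7 is found in them. Each run is the 250 bases before the first start site that RefSeq (GRCm38.p6) lists, 5′ to 3′ on the gene's own strand, with capitals marking CTTTGAT or its reverse complement. Wnt11 lies on the plus strand (chr7:98834862-98835111), Wnt7a on the minus strand (chr6:91411354-91411603), Axin2 on the plus strand (chr11:108920099-108920348) and Lef1 on the plus strand (chr3:131110047-131110296).
Wnt11: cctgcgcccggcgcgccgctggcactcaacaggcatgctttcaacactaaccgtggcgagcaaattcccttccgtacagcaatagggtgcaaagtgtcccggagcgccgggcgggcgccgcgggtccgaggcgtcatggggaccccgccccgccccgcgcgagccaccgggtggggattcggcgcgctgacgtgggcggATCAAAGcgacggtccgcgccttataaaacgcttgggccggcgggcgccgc
Wnt7a: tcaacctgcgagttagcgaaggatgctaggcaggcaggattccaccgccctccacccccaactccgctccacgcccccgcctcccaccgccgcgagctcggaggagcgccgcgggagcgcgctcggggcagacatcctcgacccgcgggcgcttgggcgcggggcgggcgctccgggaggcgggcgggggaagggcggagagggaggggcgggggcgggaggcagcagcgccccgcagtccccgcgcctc
Axin2: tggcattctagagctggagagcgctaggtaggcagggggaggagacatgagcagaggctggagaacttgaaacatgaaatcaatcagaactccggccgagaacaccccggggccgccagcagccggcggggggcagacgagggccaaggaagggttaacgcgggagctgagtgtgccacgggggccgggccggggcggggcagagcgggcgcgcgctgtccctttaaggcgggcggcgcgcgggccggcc
Lef1: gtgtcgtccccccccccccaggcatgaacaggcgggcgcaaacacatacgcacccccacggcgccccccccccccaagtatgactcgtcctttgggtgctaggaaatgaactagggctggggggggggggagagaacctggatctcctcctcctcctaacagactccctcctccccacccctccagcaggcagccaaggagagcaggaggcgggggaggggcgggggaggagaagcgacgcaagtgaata
Wnt11 held 1 match, which starts 51 bases before the start site, and the windows of Wnt7a, Axin2 and Lef1 held 0. Of 27025 genes with such a window, 872 (3.23%) held the motif on either strand. A window was listed for 34 of the 52 members, and among these Wnt11 was the 1 that held the motif. A match is a run of letters and says nothing about binding in these cells.

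The libraries held 5783 (f/f) and 2125 (d/d) barcodes with 6819591 and 2866862 UMIs, and 5503 and 1830 passed the filter on detected genes and mitochondrial share. Cells were put in a class one by one from marker UMIs, which placed 3516 f/f cells (63.9%) and 1042 d/d cells (56.9%). Epithelial-like cells numbered 1759 and 601, stroma-like cells 1146 and 222, mesothelial-like cells 168 and 57, endothelial-like cells 243 and 77, muscle- or pericyte-like cells 57 and 19, and macrophage-like cells 132 and 59. The remaining 11 and 7 placed cells passed the lymphoid markers, too few to describe, and statements on classes below leave them out. Between 96.7% (epithelial-like) and 30.3% (muscle- or pericyte-like) of the cells of these 6 classes fell in a Leiden cluster of the same name. The median depth in these classes lay between 662 and 1076 UMIs per cell. The median mitochondrial share of UMIs was higher in d/d, at 0.417% (f/f) and 0.503% (d/d) in epithelial-like, 1.03% and 2.29% in stroma-like, 0.919% and 4.53% in mesothelial-like, 2.25% and 3.93% in endothelial-like and 1.53% and 4.41% in macrophage-like cells. Its part in the differences described below was not tested. The kinds of cells within a class differed in number: by their leading markers, the epithelial-like cells divided into a gland set (281 and 22 cells), an Lrp2 set (754 and 19) and other epithelial-like cells (724 and 560). The stroma-like cells divided into a Pth1r set (442 and 31), a Col6a4 set (370 and 158) and cells with neither set ahead (334 and 33). Erbb3 itself, the deleted gene, had 7 f/f UMIs (7.39 CPM) and 1 d/d UMI (6.07 CPM) in stroma-like cells, too few to check the deletion, and stood at 84.6 CPM (158 UMIs) and 48.0 CPM (28 UMIs) in epithelial-like cells. No whole barcode occurred in both libraries, and 158 shared their first 16 bases. RNA of one class was found in others: the luminal Muc4 and Ptpn22 pair, summed in stroma-like cells, stood at 7.36% (f/f) and 8.53% (d/d) of its epithelial-like level, and in endothelial-like cells at 30.2% and 37.9%. The markers of the Lrp2 set stood at 9.35% and 18.1% of their epithelial-like level in stroma-like cells. In endothelial-like cells they stood at 29.1% and, on 1 d/d UMI, 5.97%. Their epithelial-like level was itself 1750 CPM in f/f and 201 CPM in d/d. The share of such carried-over UMIs in any 1 member's level was not tested.

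Levels are UMIs of a gene per 1000000 UMIs of a class in a library (CPM), given beside the UMI counts behind them. All intervals are exact 95% intervals and cover counting error only. Because the assay reads each gene through its own probes, levels are compared between cells and libraries and not between genes. Over both libraries 34 members had at least 20 UMIs: 10 ligands, 11 receptors, 6 genes of the R-spondin axis, 4 secreted modulators and all 3 nuclear factors or targets. Another 12 had 1 to 19 UMIs (Wnt2, Wnt3, Wnt8b, Wnt9b, Wnt10a, Wnt10b, Rspo2, Rspo4, Lgr6, Dkk1, Sfrp1 and Wif1), and 6 had 0 (Wnt1, Wnt3a, Wnt8a, Fzd9, Dkk4 and Sfrp5). For those 6, a count of 0 limits the level in cells to that of 3 UMIs in a library and does not show absence.

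In which cells the members were read was asked first, in each library on its own. Of 25 members with at least 50 UMIs over the 5 classes that had 50 cells or more in both libraries, 16 had the same highest class in both. Stroma-like cells were highest for 8 of them (Wnt5a, Wnt9a, Wnt16, Sfrp2, Sfrp4, Dkk3, Lef1 and Axin2), epithelial-like cells for 4 (Wnt7a, Fzd6, Znrf3 and Rnf43), mesothelial-like cells for 2 (Wnt2b and Rspo1), endothelial-like cells for Fzd4 and macrophage-like cells for Lrp6. The order is less firm than this count reads, since neighbouring classes often had overlapping intervals, as for Lrp6 (145.7 CPM in f/f macrophage-like cells, 93.4 to 217, beside 141 CPM in stroma-like cells, 118 to 167). The share of genes with the same highest class was not computed over all genes.

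Among the ligands, Wnt7a stood at 101 CPM in f/f and 281 CPM in d/d epithelial-like cells and at 6.33 and 42.5 CPM in stroma-like cells. Wnt5a stood at 301 CPM (285 UMIs) in f/f and 152 CPM (25 UMIs) in d/d stroma-like cells, and at 96.4 and 65.2 CPM in epithelial-like cells. Wnt7a was thus highest in epithelial-like and Wnt5a in stroma-like cells of both libraries. Wnt5a was also read at 181 CPM (34 UMIs) in f/f mesothelial-like and 152 CPM (25 UMIs) in f/f macrophage-like cells. In d/d macrophage-like cells it stood at 139 CPM (10 UMIs, 66.4 to 255), which overlaps the d/d stroma-like interval (98.2 to 224). Wnt16 was read in stroma-like cells at 71.7 CPM (68 UMIs) and 36.4 CPM (6 UMIs), and in epithelial-like cells at 3.21 and 3.43 CPM. Wnt9a stood at 69.6 and 91.02 CPM in stroma-like cells and 3.75 and 3.43 CPM in epithelial-like cells. Neither was confined to stroma-like cells. Wnt9a stood at 58.6 CPM (11 UMIs) and 48.7 CPM (3 UMIs) in mesothelial-like cells. Wnt16 stood at 62.9 CPM (4 UMIs) and 113 CPM (2 UMIs) in muscle- or pericyte-like cells. Wnt5b and Wnt6 were sparse, with 30 and 4 UMIs (Wnt5b) and 8 and 2 UMIs (Wnt6) in stroma-like cells. Wnt2b was concentrated in mesothelial-like cells of the f/f library, at 229 CPM (43 UMIs, 166 to 309) against 8.44 CPM in stroma-like cells. Wnt11 changed its highest class: the f/f library had it at 303 CPM in epithelial-like cells and between 21.1 and 141 CPM in the 5 other classes named, and the d/d library at 39.4 CPM in epithelial-like cells. Its highest d/d value, 146 CPM in mesothelial-like cells, rested on 9 UMIs.

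**Figure D1:**
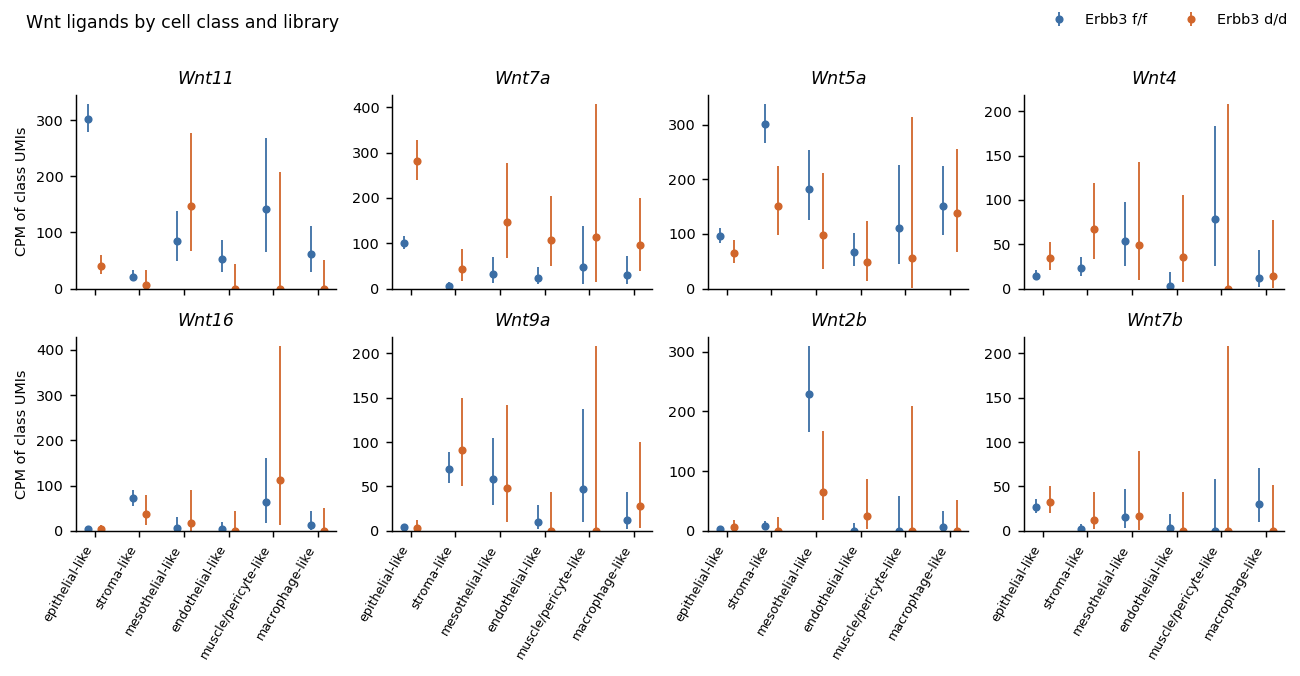
Level of 8 Wnt ligands (vertical axis, CPM of the UMIs of a class) in 6 cell classes (horizontal axis) for the f/f library (blue) and the d/d library (orange); bars are exact 95% counting intervals. Wnt11 stands at 303 CPM in f/f and 39.4 CPM in d/d epithelial-like cells, Wnt7a at 101 and 281 CPM, and Wnt2b is highest in mesothelial-like cells of both libraries.

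Rspo1, a secreted agonist, had the sharpest place among the agonists and antagonists: 661 CPM (124 UMIs, 550 to 788) in f/f and 649.6 CPM (40 UMIs, 464 to 885) in d/d mesothelial-like cells, against 43.3 and 97.1 CPM in stroma-like cells and 7.50 and 12.0 CPM in epithelial-like cells. The next classes did not reach this level in either library. Rspo3 was read most in muscle- or pericyte-like cells, at 141 CPM (9 UMIs) and 169 CPM (3 UMIs), with intervals from 34.9 to 495 CPM over both libraries that overlap those of mesothelial-like cells. Sfrp2 stood at 198 and 121 CPM in stroma-like cells and at 13.9 and 5.14 CPM in epithelial-like cells. Dkk3, at 122 and 194 CPM in stroma-like cells, stood at 15.5 and 5.14 CPM in epithelial-like cells, and Sfrp4 was read in stroma-like cells at 48.5 and 30.3 CPM. Dkk2 was sparse, with 12 and 2 UMIs in stroma-like and 9 and 6 in endothelial-like cells. Of the 4 secreted modulators with at least 20 UMIs, 3 were highest in stroma-like cells of both libraries, but not confined to them. Sfrp2 stood at 85.0 CPM (14 UMIs) and 83.1 CPM (6 UMIs) in macrophage-like cells. Dkk3 stood at 91.1 CPM (15 UMIs) and 41.6 CPM (3 UMIs) in macrophage-like cells, and at 43.1 and 108 CPM in endothelial-like cells. The ubiquitin ligases Znrf3 and Rnf43 were instead highest in epithelial-like cells. Rnf43 stood there at 140.3 and 158 CPM, against 18.99 and 18.2 CPM in stroma-like cells. Macrophage-like cells had it at 66.8 CPM (f/f) and 152 CPM (d/d, 11 UMIs, 76.1 to 273), the last near the epithelial-like level. In mesothelial-like cells it stood at 74.6 and 81.2 CPM. Znrf3 was spread more widely, at 211 and 377 CPM in epithelial-like and 143 and 146 CPM in stroma-like cells.

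Of the receptors, Fzd6 stood at 202 and 92.6 CPM in epithelial-like and 15.8 and 30.3 CPM in stroma-like cells. Fzd4 was highest in endothelial-like cells, at 92.7 CPM (28 UMIs) and 71.9 CPM (6 UMIs), and stood at 5.35 and 3.43 CPM in epithelial-like cells. Fzd1 and Fzd2 were read in stroma-like cells at 38.0 and 52.8 CPM in f/f. Fzd3, Fzd5, Fzd7, Fzd8 and Fzd10 each had under 50 UMIs in every class over both libraries. The co-receptors Lrp5 and Lrp6 were read in each of the 6 classes named in the f/f library, Lrp6 between 90.0 and 146 CPM. Lef1 stood at 788 CPM (747 UMIs) in f/f and 340 CPM (56 UMIs) in d/d stroma-like cells, at 434 and 299.6 CPM in endothelial-like cells, and at 31.6 and 42.9 CPM in epithelial-like cells. Tcf7 was sparse, with 28 f/f and 2 d/d UMIs in stroma-like cells.

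**Figure D2:**
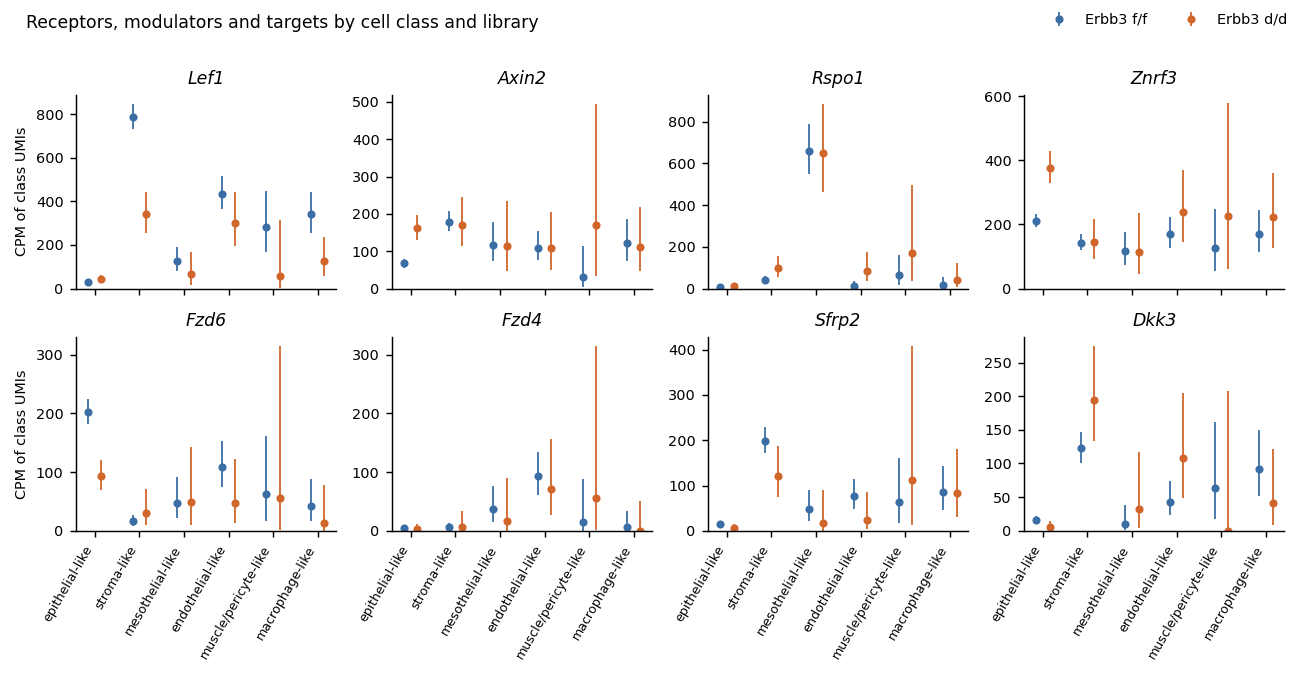
Level of 8 further members (vertical axis, CPM of the UMIs of a class) in 6 cell classes for the f/f library (blue) and the d/d library (orange); bars are exact 95% counting intervals. Rspo1 stands at 661 and 649.6 CPM in mesothelial-like cells of f/f and d/d, Lef1 at 788 and 340 CPM in stroma-like cells, and Fzd4 is highest in endothelial-like cells.

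The epithelium was then compared between the libraries, to describe what differs beside a stroma in which the series describes the deletion. Erbb3 itself was lower in d/d epithelial-like cells, as given above. Of 13 members with at least 50 UMIs over both libraries, 3 were at least 2-fold higher in d/d (Wnt7a, Fzd1 and Axin2) and 2 at least 2-fold lower (Wnt11 and Fzd6). Over all 8143 genes with that many UMIs, 5.83% were at least 2-fold higher and 5.61% at least 2-fold lower. Ratios are d/d over f/f throughout, and the median log2 ratio was 0.17 for the members and -0.02 for all genes. In other epithelial-like cells alone 10 members were counted, of which 2 were at least 2-fold higher (Wnt7a and Axin2) and 1 at least 2-fold lower (Wnt11), with 5.56% and 4.36% over all genes counted there. The members' median log2 ratio in these cells was -0.14, with 3 of the 10 above 0, against -0.02 for all genes. With 13 members the count rests on single genes, and the number lower ranged from 0 to 4 over the alternatives tried.

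Wnt11, a ligand of the non-canonical branch, had 565 f/f and 23 d/d UMIs in epithelial-like cells. Its levels were 303 CPM (278 to 329) and 39.4 CPM (25.0 to 59.2), a log2 ratio of -2.94 (-3.61 to -2.34). The levels of the libraries were far apart and their intervals did not overlap. The f/f level was 384 CPM (343 UMIs) in the Lrp2 set, 276 CPM (185 UMIs) in other epithelial-like cells and 122 CPM (37 UMIs) in the gland set. The d/d library had 20 UMIs (37.0 CPM) in other epithelial-like cells, 3 UMIs in the Lrp2 set and 0 in the gland set, which held 22 cells. Within other epithelial-like cells alone the log2 ratio was -2.90 (-3.64 to -2.23).

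The proliferation markers moved with this difference. The 12 cycling markers summed to 1125 CPM in f/f and 2779 CPM in d/d epithelial-like cells. Other epithelial-like cells without a cycling UMI numbered 494 (f/f) and 164 (d/d), and Wnt11 stood there at 307 CPM (128 UMIs) and 106 CPM (13 UMIs), a log2 ratio of -1.54 (-2.48 to -0.71). In those with a cycling UMI (230 and 396 cells) it stood at 225 CPM (57 UMIs) and 16.7 CPM (7 UMIs), a log2 ratio of -3.75 (-5.12 to -2.61). Wnt11 was therefore lower in d/d with and without a cycling UMI. Their part in the size of the difference was not tested.

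Wnt7a, known for its role in patterning the uterine epithelium and in gland formation, differed the other way. It had 189 f/f and 164 d/d UMIs in epithelial-like cells, or 101 CPM (87.3 to 117) and 281 CPM (239.8 to 328), a log2 ratio of 1.47 (1.16 to 1.78). Other epithelial-like cells alone stood at 128 and 296 CPM (1.21, 0.82 to 1.60). Without a cycling UMI they stood at 108 and 236 CPM (1.13, 0.40 to 1.83), and with one at 162 and 313 CPM (0.96, lower bound 0.44). The difference was thus present in each of these divisions, just under 2-fold in the last. In the Lrp2 set it was 104 and 155 CPM on 3 d/d UMIs, and weighted to the f/f mixture of kinds, with 1 d/d UMI in the gland set, the log2 ratio was 0.89.

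The remaining ligands of the epithelium differed less or were sparse. Wnt5a stood at 96.4 CPM (180 UMIs) and 65.2 CPM (38 UMIs), a log2 ratio of -0.57 (-1.11 to -0.05). Wnt7b stood at 26.8 and 32.6 CPM (0.28, -0.56 to 1.07), and its log2 ratio turned to -0.90 in cells without a cycling UMI (31 UMIs). Wnt4 had 27 and 20 UMIs, 14.5 and 34.3 CPM, a log2 ratio of 1.25 (0.33 to 2.13). All 20 d/d UMIs came from other epithelial-like cells, where the log2 ratio was 0.63 (-0.39 to 1.68). In all epithelial-like cells without a cycling UMI it was 0.30 (22 UMIs). In other epithelial-like cells without a cycling UMI it was -0.24 (-2.70 to 1.65), on 12 and 3 UMIs.

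Among the receptors, Fzd6, a Frizzled of the planar polarity branch, stood at 202 CPM (378 UMIs) in f/f and 92.6 CPM (54 UMIs) in d/d epithelial-like cells, a log2 ratio of -1.13 (-1.57 to -0.71). It was -0.99 in other epithelial-like cells and -0.54 (-1.39 to 0.22) in those without a cycling UMI, where the interval holds 0. Fzd1 had 27 and 26 UMIs, 14.5 and 44.6 CPM (1.62, 0.79 to 2.46), and all 26 d/d UMIs came from other epithelial-like cells. Of these, 23 came from cells with a cycling UMI, where f/f had 4 UMIs and the log2 ratio was 1.80 (0.25 to 3.79). Without a cycling UMI, all epithelial-like cells had 14 and 3 UMIs, a log2 ratio of 0.74 (-1.70 to 2.58), and the interval holds 0. Fzd10 had 7 and 8 UMIs, at 3.75 and 13.7 CPM. Lrp5 stood at 99.6 and 90.9 CPM (-0.13, -0.60 to 0.31) and Lrp6 at 90.0 and 101 CPM (0.17, -0.28 to 0.61), so the co-receptors differed by no more than counting error in the whole class. By kind, Lrp6 stood at 85.5 and 44.2 CPM in the gland set, on 1 d/d UMI, and at 77.3 and 155 CPM in the Lrp2 set, on 3 d/d UMIs.

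Axin2, a feedback inhibitor whose transcription is widely used as a readout of canonical signalling, stood at 67.5 CPM (126 UMIs) in f/f and 161 CPM (94 UMIs) in d/d epithelial-like cells. The log2 ratio was 1.26 (0.86 to 1.65), and in other epithelial-like cells 1.48 (0.93 to 2.06), on 40 and 90 UMIs. It was 1.54 (0.55 to 2.52) without and 1.20 (0.46 to 2.01) with a cycling UMI. In the gland set the direction turned: Axin2 stood at 148 CPM (45 UMIs) in f/f and 44.2 CPM on 1 d/d UMI, with a d/d interval of 1.12 to 246 CPM that covers the f/f value. Znrf3, also a feedback inhibitor, stood at 211 CPM (394 UMIs) and 377 CPM (220 UMIs), a log2 ratio of 0.84 (0.59 to 1.08) that was beyond counting error and under 2-fold. It was 0.36 weighted to the f/f mixture of kinds and -0.47 in the Lrp2 set, on 191 and 3 UMIs. Its partner Rnf43 stood at 140.3 and 158 CPM (0.17, -0.19 to 0.52) in the whole class, but the kinds of cells differed. In the Lrp2 set it stood at 98.6 CPM (88 UMIs) and 412 CPM (8 UMIs), a log2 ratio of 2.06. In all epithelial-like cells without a cycling UMI the ratio turned to -0.54 (-1.38 to 0.20). In other epithelial-like cells without a cycling UMI it was -0.97 (-2.03 to -0.04), on 73 and 11 UMIs. Weighted to the f/f mixture of kinds it was 1.09, on 7 and 8 d/d UMIs in the gland and Lrp2 sets. Znrf3 and Rnf43 thus depended on which kinds were compared. Lgr4 stood at 26.2 and 25.7 CPM (-0.03). Lef1 had 59 and 25 UMIs (0.44, -0.30 to 1.14), and its direction turned to -1.13 in cells without a cycling UMI (34 and 2 UMIs) and to -0.63 with Leiden clusters in place of the marker classes (376 UMIs).

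Lgr5, an R-spondin receptor and target of the canonical branch, had 2 f/f and 10 d/d UMIs in epithelial-like cells, 1.07 and 17.1 CPM, with a log2 ratio of 4.00 and a wide interval (1.77 to 7.23). Over all cells that passed the filter, placed in a class or not, it had 11 and 28 UMIs (1.99 and 16.3 CPM, 1.98 to 4.19 for the log2 ratio). The inhibitor Wif1 had 1 and 12 UMIs over all such cells, with 0 and 3 of them in epithelial-like cells. Sfrp1 had 6 and 12 over all such cells, with 1 and 5 in epithelial-like cells. These 3 genes had more UMIs in the smaller library. In stroma-like cells Lgr5 had 0 f/f and 2 d/d UMIs, with a lower bound of 0.11 for the log2 ratio.

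**Figure D3:**
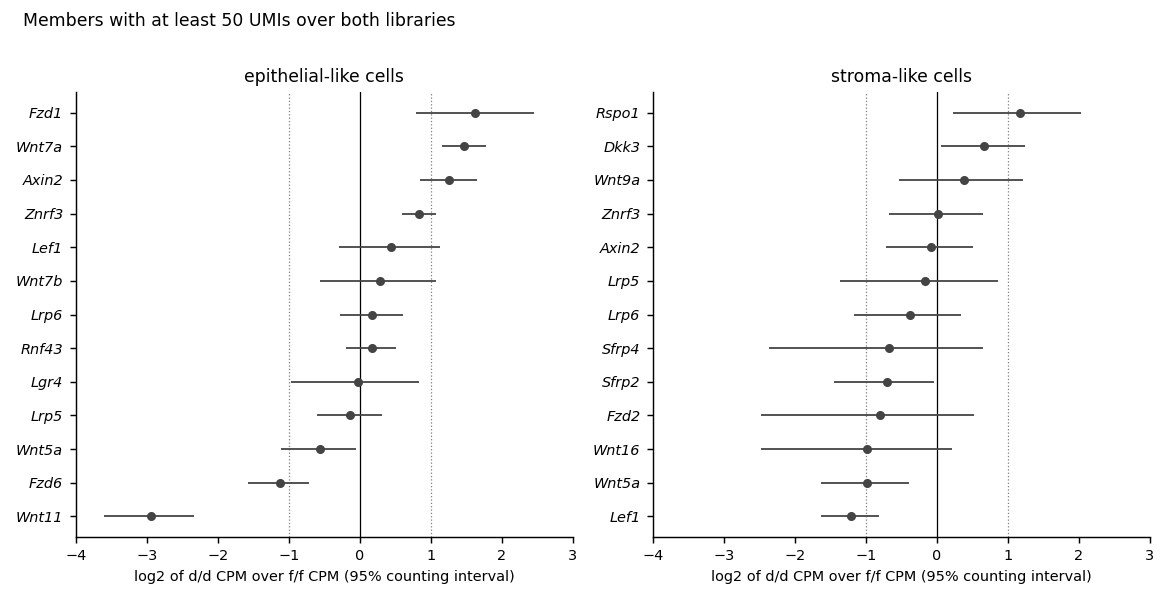
Log2 of the d/d CPM over the f/f CPM (horizontal axis) for the 13 members counted in epithelial-like cells (left) and the 13 counted in stroma-like cells (right), with exact 95% counting intervals; dotted lines mark 2-fold. Wnt11 (-2.94) and Fzd6 lie beyond the line for lower on the left, with Fzd1, Wnt7a and Axin2 beyond the line for higher, and Lef1 (-1.21) and Rspo1 (1.17) beyond the lines on the right.

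The stroma, where the series describes the deletion, was compared in the same way, on 1146 f/f and 222 d/d cells. Of 13 members with at least 50 UMIs, 1 was at least 2-fold higher in d/d (Rspo1) and 1 at least 2-fold lower (Lef1). Of the 5944 genes counted, 2.17% were at least 2-fold higher and 5.67% at least 2-fold lower. The members' median log2 ratio was -0.37, against -0.09 for all genes. Wnt5a, at -0.99, and Wnt16, at -0.98, lay just inside the line, so the number lower was 3 under either other scaling of the totals.

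Lef1, a DNA-binding partner of β-catenin, stood at 788 CPM (747 UMIs, 733 to 847) in f/f and 340 CPM (56 UMIs, 257 to 441) in d/d stroma-like cells, a log2 ratio of -1.21 (-1.63 to -0.82). The intervals did not overlap. In the Pth1r set it stood at 929 and 477 CPM (-0.96, -1.98 to -0.10). In the Col6a4 set it stood at 711 and 308 CPM (-1.21, -1.75 to -0.70), and in cells with neither set ahead at 678 and 370.2 CPM (-0.87, -2.11 to 0.14). It was lower in d/d in all 3 kinds, in the last within counting error.

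Wnt5a stood at 301 CPM (285 UMIs, 267 to 338) and 152 CPM (25 UMIs, 98.2 to 224), a log2 ratio of -0.99 (-1.64 to -0.40). By kind of stroma it was -1.39 on 3 d/d UMIs in the Pth1r set, -0.68 (-1.44 to 0.02) in the Col6a4 set, and -2.53 on 1 d/d UMI in cells with neither set ahead. Wnt16 had 68 and 6 UMIs (-0.98, -2.47 to 0.22) and Wnt9a 66 and 15 (0.39, -0.53 to 1.21), so neither difference exceeded counting error. Wnt4, below the minimum for the count, had 22 and 11 UMIs, at 23.2 CPM (14.5 to 35.1) and 66.7 CPM (33.3 to 119), a log2 ratio of 1.52 (0.33 to 2.63). Wnt7a had 6 and 7 UMIs in stroma-like cells, at 6.33 and 42.5 CPM. The Muc4 and Ptpn22 pair there stood at 13.7 CPM (f/f) and 24.3 CPM (d/d), and the Lrp2-set markers at 164 and 36.4 CPM. The part of carried-over luminal RNA in the Wnt7a values was not tested.

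The secreted modulators of the stroma differed in direction. Sfrp2 stood at 198 CPM (188 UMIs) and 121 CPM (20 UMIs), a log2 ratio of -0.71 (-1.45 to -0.04). Dkk3 stood at 122 CPM (116 UMIs) and 194 CPM (32 UMIs), a log2 ratio of 0.67 (0.05 to 1.24), and Sfrp4 at 48.5 and 30.3 CPM (-0.68, -2.37 to 0.65). Rspo1 stood at 43.3 CPM (41 UMIs) and 97.1 CPM (16 UMIs), a log2 ratio of 1.17 (0.23 to 2.03). Its log2 ratio was past 2-fold in 8 of the 12 alternatives that gave a value (0.67 to 1.67), and under several of them it had fewer than the 50 UMIs needed to be counted. In the Col6a4 set it rested on 6 and 7 UMIs, with a log2 ratio of 1.61 (-0.18 to 3.46). Of the 16 d/d UMIs of Rspo1, 8 came from the 33 cells with neither set ahead. The 7 mesothelial markers summed to 33.8 CPM (32 UMIs) in f/f and 66.7 CPM (11 UMIs) in d/d stroma-like cells, and their part in the Rspo1 difference was not tested.

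Axin2 stood at 179 CPM (170 UMIs) and 170 CPM (28 UMIs) in stroma-like cells, a log2 ratio of -0.08 (-0.71 to 0.50). The kinds of stroma did not share this value: the Pth1r set had 74 UMIs (198 CPM) in f/f and 0 among the 31 d/d cells, with a log2 ratio of at most -0.27 at the upper end of its interval, while the Col6a4 set stood at 149 and 199.8 CPM (0.42, -0.35 to 1.16). Znrf3 (0.02 in stroma), Lrp6 (-0.37), Lrp5 (-0.16) and Fzd2 (-0.80, -2.48 to 0.52) did not differ beyond counting error in stroma-like cells.

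**Figure D4:**
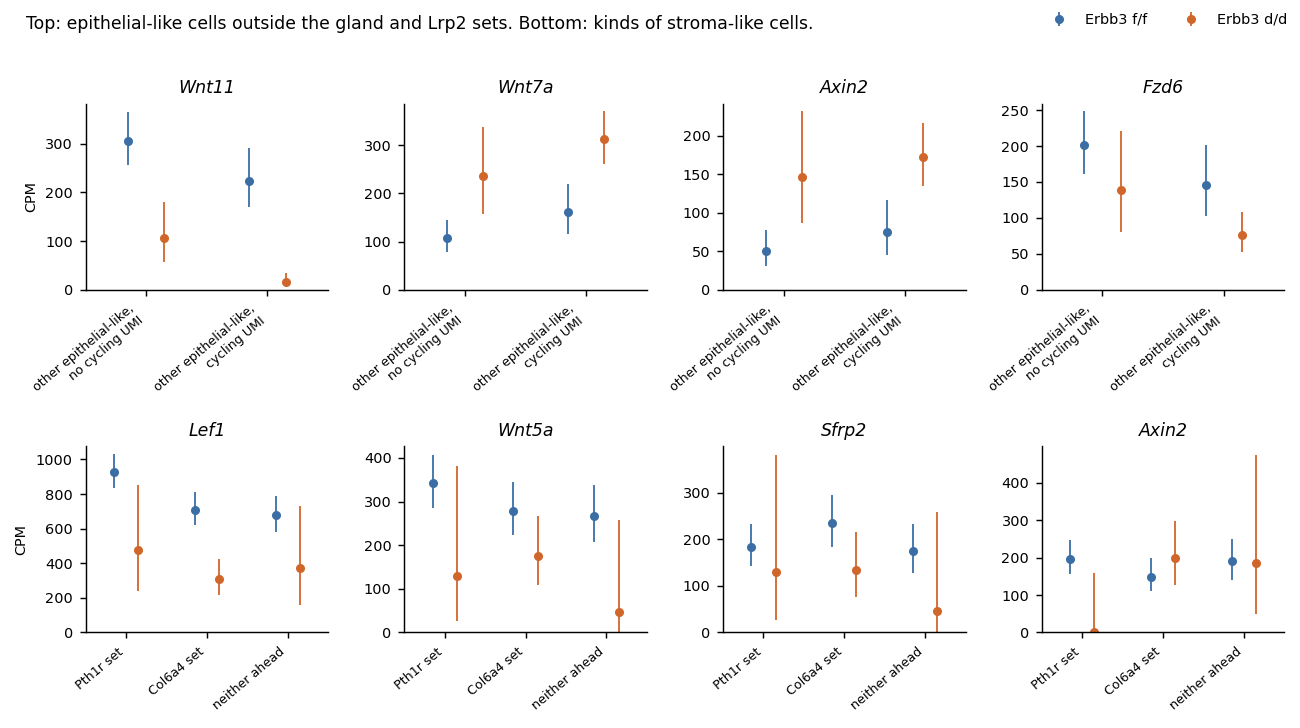
Levels (vertical axis, CPM) of 4 members in other epithelial-like cells without and with a cycling UMI (top) and of 4 members in the 3 kinds of stroma-like cells (bottom), f/f in blue and d/d in orange, with exact 95% counting intervals. Wnt11 is lower and Axin2 higher in d/d in both epithelial divisions, and Lef1 is lower in d/d in all 3 kinds of stroma.

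Other classes had few members with enough UMIs. In mesothelial-like cells 1 member was counted, Rspo1, with a log2 ratio of -0.03 (-0.58 to 0.50). Background shares there were 2.53% higher and 5.33% lower. Wnt2b, under the minimum, had 43 and 4 UMIs, 229 CPM (166 to 309) and 65.0 CPM (17.7 to 166), a log2 ratio of -1.82 (-3.76 to -0.36). In endothelial-like cells Lef1 (-0.53, -1.21 to 0.09) and Znrf3 (0.50, -0.32 to 1.28) were counted and neither was past 2-fold, where 1.11% of genes were higher and 5.45% lower. Lrp5 there had 32 UMIs (106 CPM, 72.5 to 149.6) and 2 UMIs (2.90 to 86.6 CPM), a log2 ratio of -2.14 (-5.25 to -0.17). Rspo1 there had 4 and 7 UMIs. Wnt11 in endothelial-like cells had 16 f/f and 0 d/d UMIs, with a log2 ratio of at most -0.09 at the upper end of its interval. In macrophage-like cells Lef1 was the 1 member counted, at 340 CPM (56 UMIs) and 125 CPM (9 UMIs), a log2 ratio of -1.45 (-2.65 to -0.42), where 2.38% of genes were higher and 6.3% lower. The Pth1r markers stood in macrophage-like cells at 27.3% (f/f) and 39.8% (d/d) of their stroma-like level and the Col6a4 markers at 41.4% and 29.0%, and their part in the Lef1 value was not tested. Wnt7a was also higher in d/d in mesothelial-like (32.0 and 146 CPM) and endothelial-like cells (23.2 and 108 CPM). The luminal pair stood at 32.0 and 65.0 CPM in the mesothelial-like and 56.3 and 108 CPM in the endothelial-like cells. The Lrp2-set markers went the other way, at 491 and 244 CPM in mesothelial-like and 510 and 12.0 CPM in endothelial-like cells. The part of either list in the Wnt7a values was not tested.

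The other genes of the pathway, 68 chosen by name, were counted beside the members. In epithelial-like cells 42 had at least 50 UMIs, with a median log2 ratio of -0.04. Over all genes counted there, 5.83% were at least 2-fold higher in d/d and 5.61% at least 2-fold lower. Of the 42, 4 (9.52%) were at least 2-fold higher and 3 (7.14%) at least 2-fold lower. Those higher were Notum, a secreted enzyme that inactivates Wnt proteins (32.1 and 89.2 CPM, 1.47), Tcf7l1, a nuclear factor that mainly represses (31.6 and 82.3 CPM, 1.38), Ccnd1, which encodes cyclin D1 (49.8 and 142 CPM, 1.51), and Tnfrsf19, a cited target (193 and 667 CPM, 1.79). Those lower were Porcn, the enzyme that attaches the lipid to Wnt proteins (389 and 169.7 CPM, -1.20), and the planar polarity genes Ptk7 (-1.09) and Celsr2 (-1.01). Of the 13 counted genes of cytoplasmic transduction, 0 were past 2-fold in either direction, Ctnnb1, which encodes β-catenin, standing at 223 and 185 CPM (-0.27, -0.59 to 0.04). Of the 5 counted genes on the list of commonly cited targets, Ccnd1 and Tnfrsf19 were the 2 past 2-fold, while Myc was at 0.84 (0.38 to 1.29), Sox9 at 0.88 (0.19 to 1.54) and Bambi at -0.94 (-1.64 to -0.29). In stroma-like cells 35 of the 68 were counted, where 2.17% of all genes were at least 2-fold higher and 5.67% at least 2-fold lower. Of the 35, none was at least 2-fold higher and 4 (11.4%) were at least 2-fold lower. The 4 were Gpc6, a glypican (-2.23), Scrib (-1.05), and the co-repressor genes Tle1 (-1.04) and Tle4 (-1.45, on 3 d/d UMIs).

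The genes whose pattern was most like that of the 3 ligands with the most UMIs were found by Pearson's correlation of log2(CPM + 10) over the 13 combinations of class and library with at least 50 cells. The points share libraries, depth and carried-over RNA, so the values are descriptions. For Wnt11 they were Hif1a (0.96), Atf7ip2 (0.94) and Arvcf (0.94). For Wnt5a they were Nog (0.87), Xpot (0.83) and Mef2a (0.82), and for Wnt7a Il1r1 (0.92), Clec2f (0.91) and Ect2 (0.90).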

How the data were processed

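The deposited files hold raw UMI counts for each gene in each barcode that the authors' pipeline took for a cell. The matrix headers name Cell Ranger 9.0.0, and the authors scaled nothing. The submitters' processing notes name both mm10 and GRCm39 without saying which was used, so coordinates are given from GRCm38.p6 RefSeq alone. The members and lists were chosen with earlier results of these data known. Barcodes with at least 200 genes and at most 10% mitochondrial UMIs were kept. Classes came from marker lists: at least 2 UMIs from 2 markers of exactly 1 rarer class, or at least 3 UMIs from 2 epithelial or stromal markers making up 67% (epithelial) or 83.5% (stromal) of both, with at most 1 UMI of a rarer class. Gland-set cells needed 2 gland-marker UMIs, and Lrp2-set cells 2 Lrp2-set UMIs and fewer gland UMIs. The gate left out 7 markers that clusters of other classes hold, a choice made after seeing the data, and 1 marker was not in the panel.

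UMIs were summed by class and library and scaled to CPM. Log2 ratios have exact conditional binomial intervals and sums exact Poisson intervals, both at 95%. A gene was counted with at least 50 UMIs over both libraries, and a count of 0 was taken as 3 UMIs where a bound was needed. Named members were those with 50 UMIs in a class, then those below it whose interval leaves out a ratio of 1. The code was tested on simulated counts. Scrublet in scanpy 1.11.5 called 1 and 5 doublets, too few to rely on, so none were removed. Python 3.11.15, numpy 2.4.6 and scipy 1.17.1 were used.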

Additional observations from a re-analysis of the deposited data

How the results depend on the processing

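Of the values of single genes under 19 alternatives, 357 of 384 stayed within the counting interval of the value reported, 25 left it, 9 of them with a change of sign, and 2 more of at least 2-fold reversed. These were epithelial Axin2 at -1.74 in the gland set, on 1 d/d UMI, and Wnt4 at -0.12 with kinds weighted as in f/f. That weighting takes 0 UMIs in the 22 gland and 19 Lrp2-set d/d cells as a level of 0, so it says little of Wnt4, and likewise of epithelial Wnt5a, Fzd1 and Wnt11. Members at least 2-fold lower in epithelial-like cells (2 as reported) numbered 1 with the gate minimum 1 UMI lower, without cycling UMIs, with cells thinned to 500 UMIs, in the Lrp2 set and in other epithelial-like cells, 0 in the gland set and 4 with a minimum of 20 UMIs. Those higher (3) numbered 1 in the Lrp2 set and 0 in the gland set. In stroma-like cells those higher (1) numbered 0 under either other gate minimum, Leiden clusters, no filter, at least 500 genes, a minimum of 100 UMIs, no cycling UMIs, thinning, or either stromal set alone, and 2 with a minimum of 20 UMIs. Those lower (1) numbered 3 under either other gate minimum, Leiden clusters, at least 500 genes, TMM or median-of-ratios scaling, 2 with no filter, 4 with a minimum of 20 UMIs and 4 with kinds weighted as in f/f, where Fzd2 and Sfrp4 had 0 d/d UMIs in the Pth1r set. A count can also fall because a gene misses the 50-UMI minimum. In mesothelial-, endothelial- or macrophage-like cells members past 2-fold (1) numbered 8 with the gate minimum 1 UMI lower, 7 with a minimum of 20 UMIs, 3 with Leiden clusters, 2 with no filter, and 0 with 2 UMIs more, a minimum of 100, no cycling UMIs or thinning. The same highest class in both libraries, 16 of 25, became 9 of 17 with thinning, where fewer genes reached the minimum. Otherwise the cause of these changes was not tested.

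Wnt11 stayed at least 2-fold lower in epithelial-like cells in each of the 14 alternatives that gave a value (-3.29 to -1.31), and Wnt7a was at least 2-fold higher in 12 of 14 (0.57 to 1.55). Stromal Lef1 was at least 2-fold lower in 13 of 14 (-1.40 to -0.96). No paired analysis was possible because each genotype has 1 library. The d/d stroma-like cells gave 164802 UMIs against 947793, so most stromal members with under 30 d/d UMIs cannot be told from no change. Leaving out barcodes whose first 16 bases occur in both libraries was added after seeing the data.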

Other observations

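The filter left out 280 f/f and 295 d/d barcodes, mostly for a high mitochondrial share (medians 15.9% and 14.8% of UMIs). These barcodes enter none of the main comparisons, though the alternative with no filter holds them, and their members' levels, per 1000000 UMIs outside the mitochondrial genes, are a second reading of the same libraries, with all cell classes mixed. Wnt11 stood at 208 CPM (170 UMIs) in f/f and 46.8 CPM (34 UMIs) in d/d, a log2 ratio of -2.15 (-2.73 to -1.62). Wnt7a stood at 137 CPM (112 UMIs) and 279 CPM (203 UMIs), a log2 ratio of 1.03 (0.69 to 1.37), and Axin2 at 63.6 and 131 CPM, a log2 ratio of 1.04 (0.54 to 1.55). Lef1 stood at 149 and 102 CPM, a log2 ratio of -0.55 (-0.99 to -0.12). Wnt11, Wnt7a and Axin2 had the direction they had in epithelial-like cells, and Lef1 the direction it had in stroma-like cells. Other classes differed: Lef1 was at 0.44 in epithelial-like, Axin2 at -0.08 in stroma-like and Wnt11 at 0.78 in mesothelial-like cells. Some members turned against their epithelial-like direction, among them Wnt7b (-0.42) and Lrp5 (0.22), within counting error. For Fzd6 the interval held 0 (-0.45, -0.92 to 0.02), and so did that for Wnt4 (0.52, lower bound -0.43).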
